A study of Homo sapiens with 4 samples.

Results

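The epithelial and colon identity genes are a list of 31 genes that mark epithelial cells in general or the lining of the intestine in particular. The list is one of gene names chosen with earlier results of these data known, without a threshold on measured values, and 29 of the 31 had a probe set assigned to that gene alone, among 19798 genes measured. KRT8 and TFF1 were not analysed here. Each gene was read from its brightest probe set, in log2 intensity, where a difference of 1 is a 2-fold difference in signal.

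The study used HCT-116 dicer- cells, from a colorectal carcinoma, whose Dicer gene is altered; Dicer makes microRNAs mature, and the mock-transfected cells share the alteration. One-colour arrays read total RNA 24 h after transfection: 1 array for the duplex of miR-124 with a segmented guide strand (G10.12/P, 10 nM), 1 for the duplex whose guide strand is intact (G/P, 10 nM) and 2 for mock transfections. The question was whether seed-based activity, by which miR-124, a neuronal microRNA, lowers matching messenger RNAs, persists when the guide is segmented. Nothing in the labels says whether the line is 1 clone or whether the mock arrays came from separate cultures.

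Epithelial cells hold together through cadherins and claudins, fill their cytoplasm with simple keratins, and keep their identity through transcription factors such as GRHL2 and ELF3 and the splicing regulators ESRP1 and ESRP2. In the colon, CDX factors switch on intestinal genes, goblet cells secrete mucins and trefoil peptides, absorptive cells build a villin-based brush border, and LGR5 and ASCL2 mark stem cells at the crypt base. Colon carcinoma lines keep these programmes to very different degrees.

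Log2 levels across genes gave r = 0.997 for the mock pair and 0.9765 to 0.993 for the other pairs of arrays, and genes are not independent replicates. Each duplex stands on 1 array, so its differences have no replicate check. The limma p-values below take their spread from the mock pair and assume the same spread for the single duplex arrays; it may be technical. Precision is limited by the number of arrays. The markers of other cell types are low as a list: 3 of 16 measured lay above the array's median gene on each of the 4 arrays. Their summed intensity was 1129.4 with the segmented duplex, 1919.1 with the intact duplex, against 952.1 and 865.0 in the mock pair. Of the intact sum, ACTA2 held 676.4 and COL1A1 867.6, against 147.9 and 418.6 on mock array 1. The median intensity of the markers was not higher with either duplex, at 15.69 (segmented) and 15.71 (intact), against 16.06 and 20.5 (mock). ACTA2 (smooth muscle actin) rose by 2.23 after the intact duplex, COL1A1 (a fibroblast collagen) rose by 1.20 and GFAP (an astrocyte filament) fell by 0.70, and after the segmented duplex 0 of the 16 passed limma (1 at an unadjusted p under 0.05, as did 27.4% of all genes). GFAP was dim, at 2.80 with the intact duplex against 3.41 and 3.59 in mock. Markers of immune, blood and endothelial cells did not pass, and the part of the markers of other cell types in the results below was not tested.

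As a description of signal only, in mock cells 15 of the 29 measured members lay above the median gene (log2 6.62) and 14 below it. The brighter 15 were EPCAM, CDH1, CLDN3, CLDN4, CLDN7, KRT18, KRT19, GRHL2, ELF3, ESRP1, ESRP2, ST14, MUC1, LGALS3 and, of the intestinal factors, CDX2. The dimmer 14 held most colon genes: CDH17, VIL1, FABP1, CDX1, LGALS4, MUC2, MUC13, TFF3, KRT20, CEACAM5, CEACAM6, TSPAN8, LGR5 and ASCL2. Of these 14, 13 lay in the dimmest 40% of all genes. Brightness depends on the probes, so these positions do not order the genes by expression. No detection call was used here, and whether the dim genes lay above background was not tested.

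**Figure D1:**
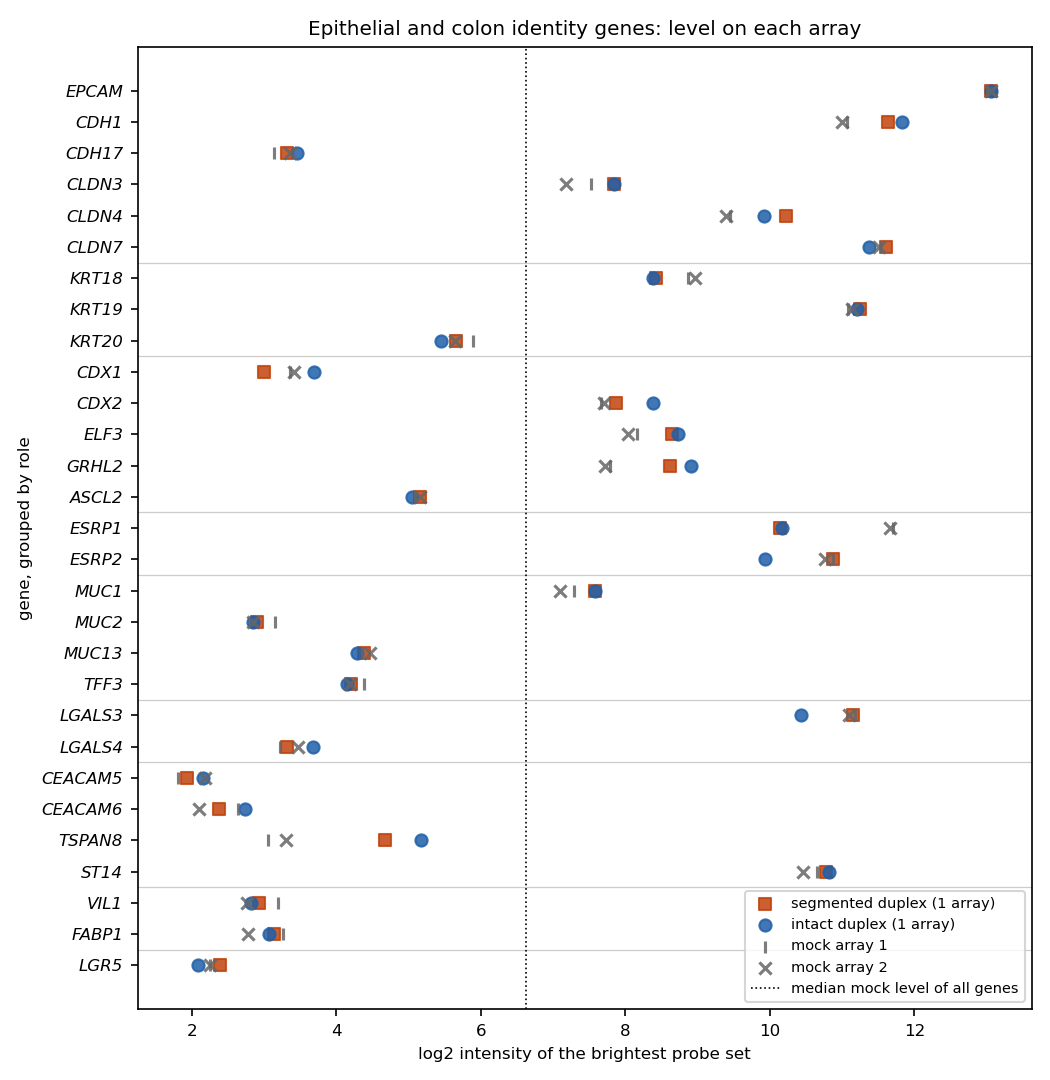
Log2 intensity of the brightest probe set of each of the 29 measured members on every array, with genes grouped by role. The segmented (squares) and intact (circles) arrays separate from both mock arrays (bar and cross) for several genes. Among them are TSPAN8, GRHL2, CDH1, CLDN4 and ELF3 on the high side and ESRP1 and KRT18 on the low side. EPCAM shows the 4 arrays on top of each other.

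A minority of the 29 measured members passed limma with all genes tested, and a member that missed it was not shown to be unchanged. With the segmented duplex 2 of 29 rose, TSPAN8 and GRHL2, and 1 fell, ESRP1, by limma at a Benjamini-Hochberg adjusted p under 0.05 over all genes. That is 3 of 29 members, where 5.99% of all genes passed, 3.31% higher and 2.68% lower. With the intact duplex 5 rose, TSPAN8, GRHL2, CDH1, CDX2 and ELF3, and 3 fell, ESRP1, ESRP2 and LGALS3, so 8 of 29 members, where 24.9% of all genes passed, 14.5% higher and 10.4% lower. For the intact duplex the members' share is close to that of all genes, and a count of 3 does not set the segmented share apart. Under centring on array medians, which moved the median of all genes by -0.19 (segmented) and -0.24 (intact), the counts were 1 higher and 1 lower with the segmented and 3 higher and 4 lower with the intact duplex, where 9.34% and 30.7% of all genes passed. A further quantile normalization gave 2 higher and 1 lower, and 3 higher and 4 lower, where 6.11% and 25.5% of all genes passed. The median log2 change of the members was 0.06 with the segmented and 0.10 with the intact duplex, beside 0.01 and 0.02 over all genes. Under centring it turned to -0.14 and -0.15, but every gene shifted alike there, so the members' distance from all genes did not change. The median absolute change was 0.12 and 0.32, beside 0.23 and 0.31 over all genes. Both comparisons use the same mock arrays, so their changes are given side by side below and not as separate support for each other.

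**Figure D2:**
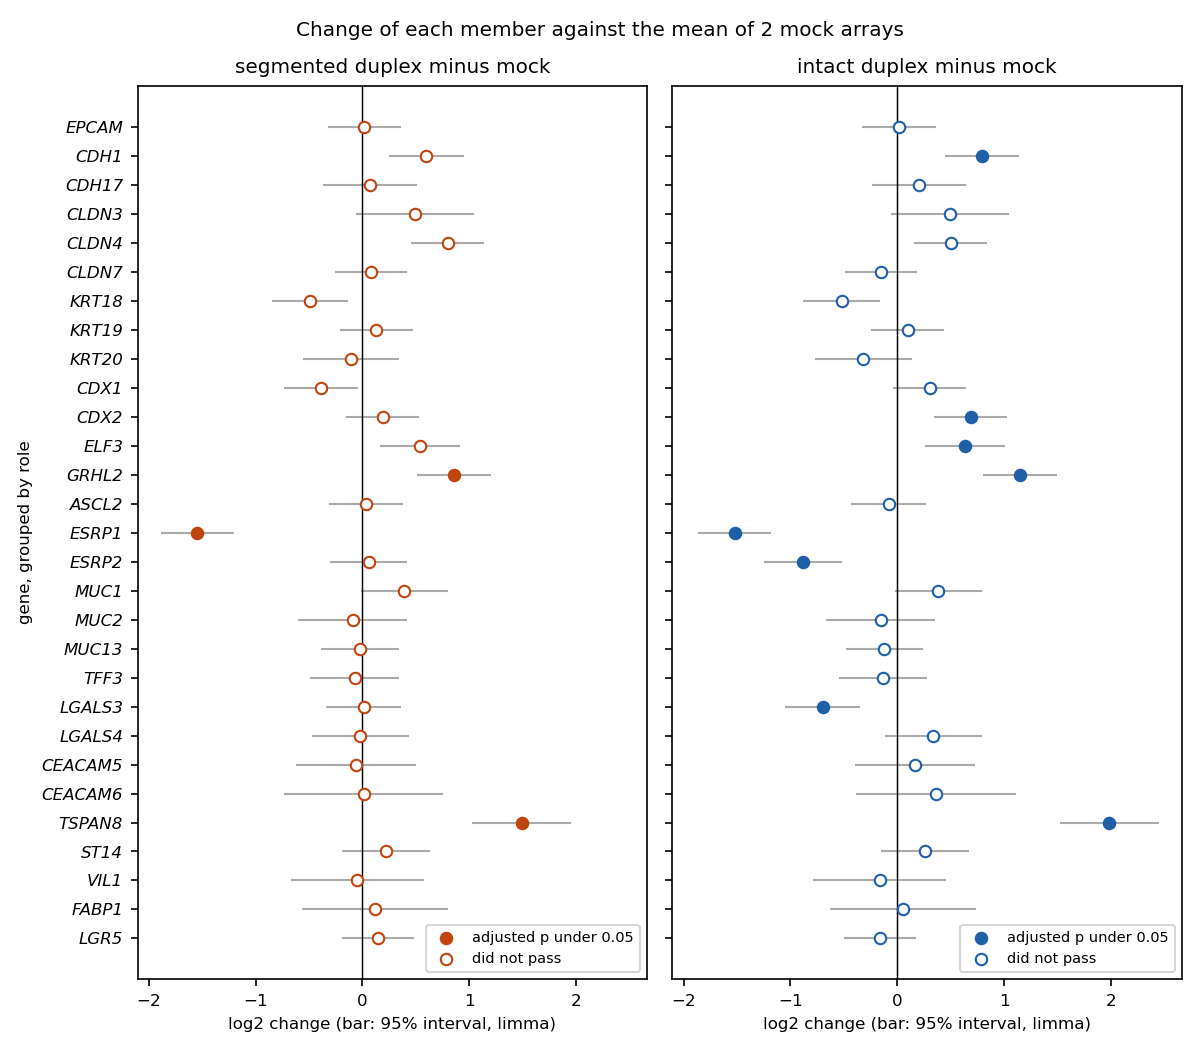
Log2 change of each measured member against the mean of the 2 mock arrays, for the segmented duplex (left) and the intact duplex (right), with 95% intervals from limma as bars. Filled points passed an adjusted p of 0.05: 3 members at the left and 8 at the right, with TSPAN8 plotted at 1.49 and 1.99 and ESRP1 at -1.55 and -1.52; the size for TSPAN8 is uncertain because its mock signal was dim.

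Among the adhesion genes, CDH1 was higher and EPCAM was level. CDH1 encodes E-cadherin, the calcium-dependent adhesion protein of epithelial junctions. Its log2 level was 11.64 with the segmented duplex and 11.83 with the intact duplex, against 11.07 and 11.003 on the mock arrays. Both duplex arrays stood above both mock arrays. The rise with the intact duplex was 0.79 (limma SE 0.12, adjusted p = 0.0227), and the change of 0.60 with the segmented duplex did not pass (adjusted p = 0.0776). That segmented change did pass once the dimmest genes were dropped and with the trended and robust prior, but in no other fit. The difference of segmented minus intact was -0.20 (95% interval -0.60 to 0.21, not adjusted). EPCAM, a homophilic adhesion protein used to capture epithelial cells, read 13.05 on the segmented array and 13.05 on the intact array, against 13.01 and 13.06 on the mock arrays. These levels overlap, and the 95% interval of the difference between the segmented and the intact array ran from -0.40 to 0.40. CDH17, the cadherin of liver and intestine, was dim, with levels between 3.14 and 3.46 on the 4 arrays, and its changes of 0.07 (segmented) and 0.20 (intact) did not pass.

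The claudins, the strand proteins of tight junctions, differed among themselves. CLDN4 had log2 levels of 10.22 with the segmented duplex, 9.92 with the intact duplex and 9.45 and 9.39 on the mock arrays. Both duplex arrays lay above both mock arrays, the segmented array the higher, but the changes of 0.80 and 0.50 missed the threshold of limma narrowly (adjusted p = 0.0507 and 0.0585). In 4 of the 5 other fits the segmented change passed (limma adjusted p from 1.4e-05 to 0.0498), and under centring it was 0.61 (adjusted p = 0.0613). The intact change passed in 2 of the 5, once the dimmest genes were dropped and with the trended and robust prior. Its second probe set gave 0.72 and 0.47. CLDN3 read 7.84 with either duplex, against 7.53 and 7.17 on the mock arrays. Its change of 0.49 with each did not pass, the mock arrays being 0.36 apart, and with the intact duplex its second probe set went the other way (-0.12). CLDN7 stood at 11.60 on the segmented array and 11.37 on the intact array, against 11.54 and 11.51 on the mock arrays. Its change was 0.08 (segmented) and -0.15 (intact), and neither passed. The other CLDN7 probe set gave -0.02 and -0.36.

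No keratin passed the test. KRT18, a filament protein of simple epithelia, had levels of 8.42 (segmented) and 8.39 (intact), against 8.86 and 8.96 (mock). Both duplex arrays lay below both mock arrays, with changes of -0.49 and -0.52 and limma adjusted p-values of 0.109 and 0.0580. With the intact duplex KRT18 did pass under 5 of the 5 other fits tried, with limma adjusted p-values of 0.00263 to 0.0467. KRT19, also of simple epithelia, read 11.24 (segmented) and 11.21 (intact), against 11.08 and 11.14 (mock). KRT20, a keratin of differentiated intestinal cells, read 5.66 (segmented) and 5.45 (intact), against 5.89 and 5.65 (mock). The changes of KRT19 (0.13 and 0.10) and KRT20 (-0.11 and -0.32) did not pass.

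Transcription factors made up 3 of the 5 rises with the intact duplex. GRHL2 encodes a grainyhead factor that maintains epithelial genes, CDH1 among them. Its log2 level was 8.62 with the segmented duplex and 8.91 with the intact duplex, against 7.79 and 7.72 on the mock arrays. The groups did not overlap, and the rises were 0.86 (1.81-fold, limma adjusted p = 0.0475) with the segmented and 1.15 (2.22-fold, adjusted p = 0.0124) with the intact duplex. Under a further quantile normalization and under centring each array on its median, the segmented change of GRHL2 was 0.74 and 0.66 and missed the threshold (limma adjusted p = 0.0528 and 0.0520).

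ELF3 encodes an ETS factor of differentiating epithelia. It read 8.64 (segmented) and 8.73 (intact), against 8.16 and 8.03 (mock), and both of its probe sets were higher with each duplex. The intact rise of 0.63 passed (limma adjusted p = 0.0423), and the segmented change of 0.54 did not (adjusted p = 0.101). CDX2, the homeobox factor that specifies the intestine, read 7.88 (segmented) and 8.38 (intact), against 7.67 and 7.71 (mock). Its intact rise of 0.69 passed (limma adjusted p = 0.0291), and its segmented change of 0.19 did not. Neither intact change passed under those 2 other scalings, where they were 0.51 and 0.39 for ELF3 (limma adjusted p = 0.0553 and 0.0901) and 0.53 and 0.45 for CDX2 (limma adjusted p = 0.0534 and 0.0729).

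CDX1, the relative of CDX2, was dim. It read 3.01 with the segmented duplex and 3.69 with the intact duplex, against 3.36 and 3.42 on the mock arrays. The segmented array lay below both mock arrays and the intact array above both, and neither change passed. ASCL2, a crypt stem cell factor, had levels from 5.04 to 5.16, and the stem cell receptor gene LGR5 from 2.09 to 2.40. No change of ASCL2 or LGR5 passed.

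The promoters of TSPAN8, ELF3 and CDX2 are shown because these genes rose and RefSeq start sites were given for them. Each is the 250 bases before an annotated start in GRCh38.p14, read on the gene's own strand, and capitals mark a match to a motif. Of the 31 listed genes, 16 had such a window, 19 windows in all. The motifs searched on both strands were AACCNGTT, bound by grainyhead factors, and CAGGTG, an E-box bound by ZEB and SNAI repressors. AACCNGTT was in 0 of the 19 windows and in 1.49% of 35116 windows of all genes, so no overlap of the 2 motifs arose. CAGGTG was in 6 of the 19 windows, those of CEACAM5, CLDN7, ELF3, LGALS4 and MUC1 (2 overlapping windows of MUC1), and in 17.5% of all windows. In ELF3 it begins at position -120 relative to the start, on the strand opposite to the gene. Both TSPAN8 windows, of which the one ending nearer the gene is shown, and the CDX2 window hold no match, which says only that these letters are not in these bases.
TSPAN8, chr12:71157810-71158059, minus strand: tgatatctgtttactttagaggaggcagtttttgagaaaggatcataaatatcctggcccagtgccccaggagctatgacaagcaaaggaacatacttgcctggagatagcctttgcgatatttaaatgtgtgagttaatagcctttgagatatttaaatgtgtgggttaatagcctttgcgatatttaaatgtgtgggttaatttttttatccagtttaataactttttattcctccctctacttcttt
ELF3, chr1:202010337-202010586, plus strand: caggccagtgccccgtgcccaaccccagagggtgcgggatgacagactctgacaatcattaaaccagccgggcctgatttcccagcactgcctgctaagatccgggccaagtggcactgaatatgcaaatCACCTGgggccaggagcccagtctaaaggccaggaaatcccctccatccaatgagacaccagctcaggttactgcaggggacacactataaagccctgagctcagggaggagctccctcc
CDX2, chr13:27969316-27969565, minus strand: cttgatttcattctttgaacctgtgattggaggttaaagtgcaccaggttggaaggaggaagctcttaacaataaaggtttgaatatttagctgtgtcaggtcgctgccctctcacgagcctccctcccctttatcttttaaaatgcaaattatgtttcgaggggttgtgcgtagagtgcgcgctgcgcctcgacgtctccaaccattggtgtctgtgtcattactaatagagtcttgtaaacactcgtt
The A and T content differs between them: GC made up 36.0% of the TSPAN8 window shown and 40.8% of a second one, 58.4% of the ELF3 window and 45.2% of the CDX2 window. A match is a description of the letters and not a site of binding.

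The epithelial splicing regulators fell, ESRP1 with either duplex. ESRP1 encodes the RNA-binding protein that sets epithelial exon choice in genes such as CD44, FGFR2 and CTNND1. Its log2 level was 10.14 with the segmented duplex and 10.16 with the intact duplex, against 11.70 and 11.66 on the mock arrays. The changes were -1.55 (2.92-fold, limma adjusted p = 0.0354) with the segmented and -1.52 (2.87-fold, adjusted p = 0.00906) with the intact duplex. The 95% interval of the difference between segmented and intact ran from -0.42 to 0.37. Among all genes 105 had a lower change than ESRP1 with the segmented duplex and 405 with the intact duplex. The second probe set of ESRP1 gave -1.52 and -1.46, and the third -0.60 and -0.75, so all 3 were lower with each duplex but by unequal amounts.

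ESRP2, its paralogue with overlapping targets, differed from ESRP1. It read 10.87 with the segmented duplex and 9.93 with the intact duplex, against 10.87 and 10.76 on the mock arrays. The intact array lay below the 3 others, with a change of -0.88 (1.84-fold lower, limma adjusted p = 0.0206), while the segmented change was 0.06 (adjusted p = 0.819). The difference of segmented minus intact was 0.94 (95% interval 0.52 to 1.36, not adjusted) and missed the threshold over all genes (limma adjusted p = 0.184). The 4 probe sets of ESRP2 fell into pairs: the brightest and the third gave -0.88 and -1.01 with the intact duplex, and the other two -0.28 and -0.23. With the segmented duplex the 4 gave 0.06, -0.19, -0.01 and -0.17 in order of brightness. With the mean of all 4 the intact change was -0.60 (limma adjusted p = 0.0428) and the segmented change -0.08.

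**Figure D3:**
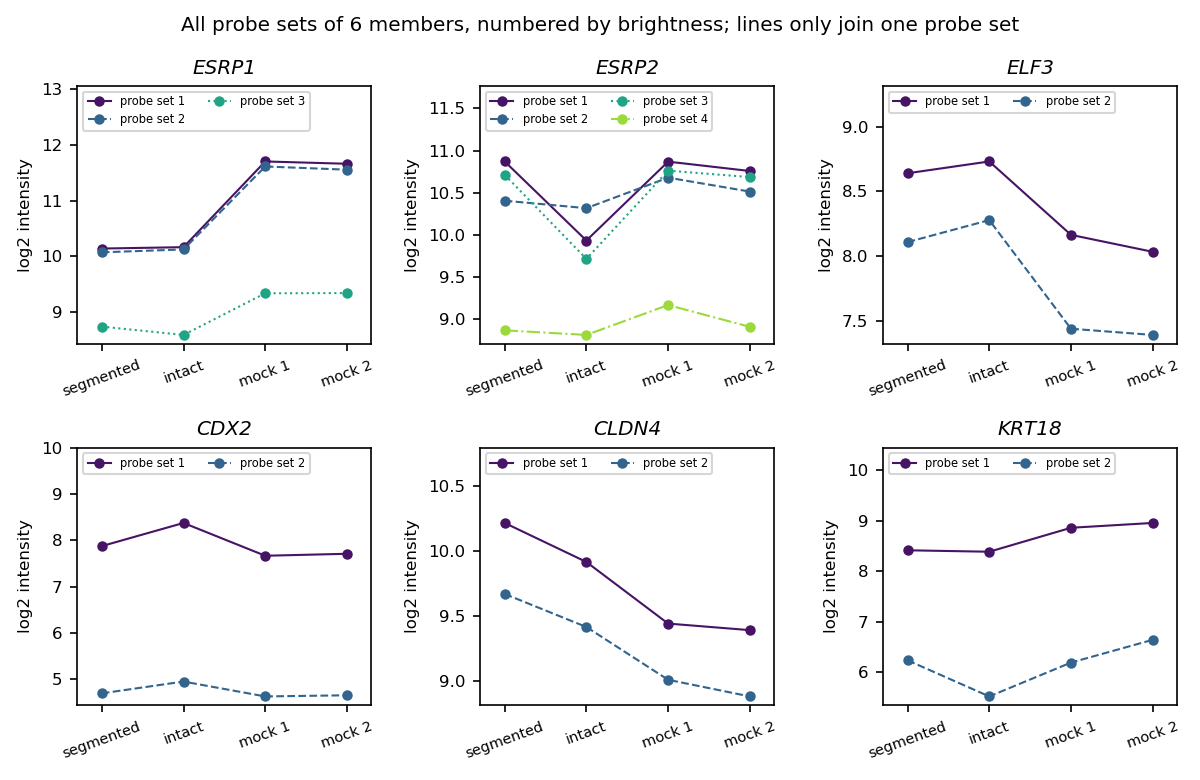
Log2 intensity of every probe set of ESRP1, ESRP2, ELF3, CDX2, CLDN4 and KRT18 on the segmented, intact and mock arrays, numbered by brightness. All 3 probe sets of ESRP1 are lower with both duplexes, and 2 of the 4 of ESRP2 drop on the intact array alone.

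Of the galectins, LGALS3 fell with the intact duplex. LGALS3 encodes galectin-3, a sugar-binding protein of many epithelia. It read 11.14 (segmented) and 10.43 (intact), against 11.18 and 11.09 (mock), so that the intact array alone stood apart. The intact change was -0.70 (limma adjusted p = 0.0306), and the segmented change was 0.01. The difference of segmented minus intact was 0.71 (95% interval 0.30 to 1.12, not adjusted, limma adjusted p = 0.20). LGALS4, the intestinal galectin, was dim at 3.22 to 3.68, with changes of -0.02 and 0.34 that did not pass.

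TSPAN8, a tetraspanin of digestive epithelia and their tumours, rose with both duplexes from a dim signal. Its log2 level was 4.67 with the segmented duplex and 5.17 with the intact duplex, against 3.05 and 3.31 on the mock arrays. The groups did not overlap, and the rises were 1.49 (2.81-fold, limma adjusted p = 0.0377) and 1.99 (3.96-fold, adjusted p = 0.00949). All 4 levels lay below the median gene, TSPAN8 had 1 probe set, and its mock levels were not shown to lie above background, so the sizes of these changes are uncertain. ST14, the membrane protease matriptase, was bright, at 10.77 (segmented) and 10.82 (intact), against 10.65 and 10.46 (mock). Both duplex arrays lay above both mock arrays, and the changes of 0.22 and 0.26 did not pass. CEACAM5 and CEACAM6, the carcinoembryonic antigen genes, had levels from 1.82 to 2.18 and from 2.10 to 2.73, with no change past the test.

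Mucins, trefoil factor and absorptive cell genes did not pass the test. MUC1, the membrane mucin of most epithelia, read 7.59 (segmented) and 7.58 (intact), against 7.28 and 7.10 (mock), with a change of 0.39 for each duplex and its other probe set at -0.09 for each. The goblet cell genes MUC2 and TFF3 and the membrane mucin gene MUC13 changed by -0.16 to -0.02. VIL1, the actin bundler of the brush border, and FABP1, a fatty acid carrier, had levels from 2.77 to 3.26, and the largest of their changes was -0.16. Among the 14 dim members TSPAN8 was the only one past the test with either duplex, and no other dim member was more than 0.39 from mock on the log2 scale.

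Set directly against each other, the segmented and the intact duplex gave 0 members past the limma threshold, as for all genes (0%). At an unadjusted limma p under 0.05, 4 of the 29 members differed, against 16.5% of all genes: ESRP2 and LGALS3, higher with the segmented duplex, and CDX2 and CDX1, lower. The differences were 0.94, 0.71, -0.50 and -0.69 in that order. The spread behind this contrast is that of the mock arrays, since neither duplex was repeated. With a prior variance that followed the level, fitted robustly, ESRP2 and LGALS3 passed (limma adjusted p = 1.05e-05 and 0.000108), and CDX2 joined them once the 40% dimmest genes were dropped. By size, ESRP2, LGALS3 and CDX1 were at least 1.5-fold apart between the duplexes, where 9.98% of all genes were.

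By size alone, 4 members on the segmented array were 1.5-fold or more away from each mock array, 3 higher and 1 lower, where 12.3% of all genes were. On the intact array 7 were, 4 higher and 3 lower, where 23.2% of all genes were. The mock arrays themselves lay that far apart for 3.23% of all genes. Against the range of the mock arrays, the segmented array was above for 13 members, below for 3 and inside for 13, and 79.5% of all genes lay outside it. The intact array was above for 14, below for 11 and inside for 4, and 83.8% of all genes lay outside.

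Other epithelial lists were measured for comparison. Among all genes 3.31% rose and 2.68% fell after the segmented duplex, and 14.5% rose and 10.4% fell after the intact duplex. At an unadjusted limma p under 0.05, 27.4% of all genes differed after the segmented duplex. In the tight junction list of 17 measured genes, 1 fell and 0 rose after the segmented duplex, while 3 rose and 4 fell after the intact duplex. MARVELD2, a protein of tricellular junctions, fell with both, at changes of -0.85 and -1.02. CLDN1 changed by -0.21 and fell by 1.34, CLDN2 by 0.65 and rose by 1.13, and the polarity gene PARD6B by 0.53 and rose by 0.98, the second value of each being the intact duplex. With the mean of all probe sets the intact change of CLDN1 was -0.43 and that of CLDN2 was 1.77. CLDN1 was dim, at 3.29 with the intact duplex against 4.58 and 4.68 in mock, and only 1 of its 3 probe sets was lower with that duplex.

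In the adherens junction and desmosome list (17 genes), 1 rose after the segmented duplex and 0 fell, and the intact duplex gave 6 rises and 2 falls. The shares over all genes were 3.31% higher and 2.68% lower (segmented), and 14.5% higher and 10.4% lower (intact). NECTIN4, an adhesion protein of the nectin family, rose by 1.92 (segmented) and 3.57 (intact), and the mean of its probe sets gave 1.05 and 2.23. CTNND1 encodes p120 catenin, which holds cadherins at the membrane. It read 10.84 (segmented) and 8.92 (intact), against 11.42 and 11.47 (mock), a change of -2.52 with the intact duplex (limma adjusted p = 0.00822). With the mean of both probe sets the intact change was -1.48. Its segmented change of -0.60 did not pass, and its 2 probe sets had opposite signs there. The desmosomal cadherin gene DSG2 changed by -0.69 and fell by 1.70, and the desmosomal plaque gene PPL changed by 0.61 and rose by 1.43. CDH1 and CTNND1, whose proteins bind each other, thus moved in opposite directions with the intact duplex.

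Of 16 measured crypt stem cell genes, 4 rose after the segmented duplex and 6 after the intact duplex, and 0 fell after either, where 3.31% and 14.5% of all genes rose. The list leaves out the stem cell genes LGR5 and ASCL2, which are members and did not pass with either duplex. Its lowest changes, which did not pass, were -0.52 (segmented) and -0.38 (intact). The receptor gene TNFRSF19 rose by 1.83 and 2.39, the surface glycoprotein gene CD24 by 1.46 and 2.00, the transcription factor gene SOX4 by 1.34 and 1.77, and AXIN2, a Wnt feedback gene, by 0.99 and 1.33, segmented first. The ephrin receptor gene EPHB3 changed by 1.23, which did not pass, and rose by 1.54. The list's median was 0.28 and 0.32, beside 0.01 and 0.02 over all genes. Under centring on array medians it was 0.08 and 0.07, and 1 gene of the list fell with each duplex. Centring shifted every gene alike, by -0.19 and -0.24, so the list's distance from all genes did not change. With the dimmest genes dropped 1 also fell with each, and with the trended and robust prior 2 fell with the segmented and 1 with the intact duplex. The mean of its probe sets gave TNFRSF19 0.67 and 1.02. One of 4 probe sets of TNFRSF19 and of SOX4 went the other way with the intact duplex.

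In the brush border list (26 genes) 0 passed with the segmented duplex (7 at an unadjusted limma p under 0.05, beside 27.4% of all genes). With the intact duplex 5 rose and 1 fell. For this and the next 2 lists, 3.31% of all genes rose with the segmented duplex, and 14.5% rose and 10.4% fell with the intact duplex. CEACAM1 changed by 1.03 and rose by 2.05, the brush border myosin gene MYO1A by 0.63 and 1.47, the actin bundler gene ESPN by 0.52 and 1.20, and USH1C by 0.67 and 1.06, the intact rise second. With the mean of all probe sets the intact changes of ESPN and USH1C were 0.68 and 0.58. Only 2 of the 3 probe sets of ESPN were higher with each duplex. The lowest changes of the brush border list were -0.80 (segmented) and -0.76 (intact). MYO1A was dim, at 6.19 with the intact duplex against 4.67 and 4.77 in mock. Of 14 goblet and secretory genes, MUC4 rose with both duplexes (0.86 and 1.14) and AGR2 with the intact duplex (0.63, at a dim 2.96 against 2.32 and 2.32 in mock). The goblet list as a whole did not lean upward with the intact duplex. Its median was 0.01 (segmented) and -0.18 (intact), beside 0.01 and 0.02 over all genes. Its lowest changes, which did not pass, were -0.50 and -0.54. Of 8 membrane protease and inhibitor genes, SPINT1, an inhibitor of matriptase, rose by 1.14 and the protease gene PRSS8 by 0.64 with the intact duplex. With the segmented duplex 0 of the 8 passed (5 at an unadjusted limma p under 0.05, beside 27.4% of all genes).

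Among 21 further epithelial and intestinal transcription factors, 1 rose after the segmented duplex and 0 fell, and the intact duplex gave 2 rises and 6 falls. For this list and the keratins after it, the shares over all genes were 3.31% higher and 2.68% lower (segmented). With the intact duplex they were 14.5% higher and 10.4% lower. GRHL3, the relative of GRHL2, read 4.60 (segmented) and 5.06 (intact), against 3.11 and 3.21 (mock), and rose by 1.44 and 1.90. GRHL3 was dim, below the median gene on every array, and had 1 probe set, so the sizes of its rises are uncertain. PPARG, a nuclear receptor of fat and colon cells, changed by 0.99 and rose by 1.06. NR5A2 fell by 0.80 (mean of its probe sets -0.13) and the ETS factor gene EHF fell by 0.74 with the intact duplex. Of 5 measured keratins outside the members, 3 rose with the intact duplex, KRT23 (0.80), KRT15 (0.67) and KRT80 (0.64), and 0 passed with the segmented duplex (1 at an unadjusted limma p under 0.05, beside 27.4% of all genes).

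The mesenchymal and epithelial-mesenchymal transition list holds genes that epithelial cells keep low. Of 22 measured, the segmented duplex gave 1 rise and 1 fall, and the intact duplex 1 rise and 5 falls. Beside these stand 3.31% higher and 2.68% lower (segmented) and 14.5% higher and 10.4% lower (intact) among all genes. SNAI2, a repressor of CDH1, read 5.81 (segmented) and 6.12 (intact), against 6.98 and 7.17 (mock), and fell with both, at changes of -1.27 and -0.96. VIM, the filament protein vimentin, changed by -0.49 and fell by 1.18, and ZEB2 changed by 0.21 and fell by 0.68, with 3 of its 4 probe sets opposed to the fall and a mean over them of -0.05 that did not pass. FN1, fibronectin, rose by 0.82 and 1.22, and the mean of its probe sets gave 0.46 with the intact duplex. The medians of the list were -0.17 and -0.14. Of the genes named from these further lists, KRT15, KRT80, PRSS8 and AGR2 (intact) and MUC4 and FN1 (segmented) missed the threshold under at least 1 of the 2 other scalings. With the mean of all probe sets CLDN1, NR5A2, AGR2, FN1, GFAP and ZEB2 (intact) and MUC4, TNFRSF19, AXIN2 and FN1 (segmented) missed it.

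**Figure D4:**
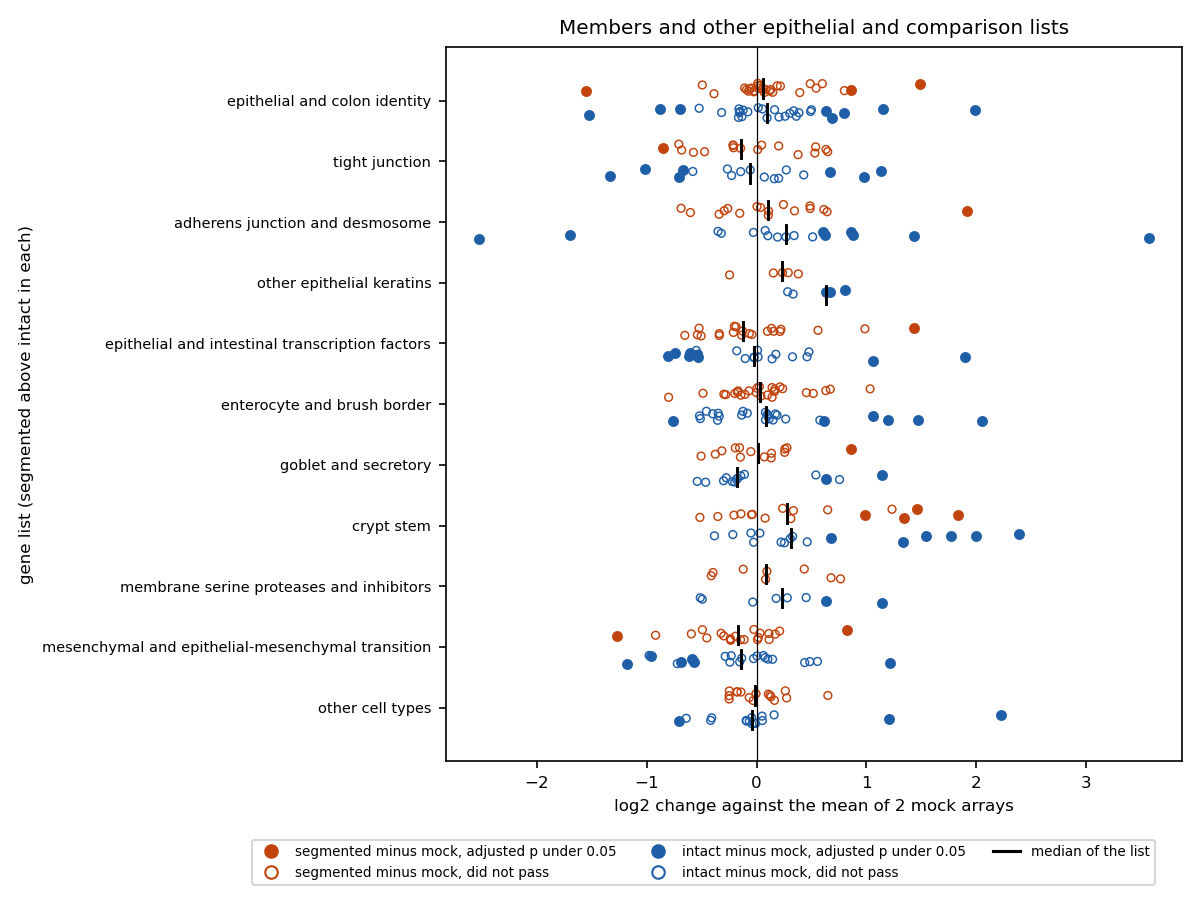
Log2 change against mock of each measured gene of the identity list (top row) and of 10 further lists, with segmented points above intact points in each row, filled where the adjusted p was under 0.05, and the list's median as a black bar. The medians of the identity list are 0.06 and 0.10. The crypt stem row, which leaves out LGR5 and ASCL2, shows filled points on the right side alone and open points on both sides.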

How the data were processed

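Biotin-labelled RNA from 4 HCT-116 dicer- samples was read on arrays (segmented duplex 1, intact duplex 1, mock 2; duplexes 10 nM, 24 h). Per the submitters' processing notes the deposited intensities come from RMA, which corrects background, quantile-normalizes the arrays and summarises the probes; no version is stated there. The values lie between 2.51 and 22268 and were therefore read as linear. The quantile step of RMA is meant to give the arrays 1 distribution, which would remove a shift of most genes. The deposited medians over probe sets still differed, at 45.33 (segmented), 46.26 (intact), and 44.31 and 42.57 (mock). How far such a shift was removed was not tested.

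The log2 of each intensity was used, without pseudocount. GEO's platform annotation named the probe sets, and Entrez identifiers led to RefSeq symbols (GRCh38.p14) for 35134 of them and not for 50. The 374 probe sets with several genes and the 16819 unlisted ones, of 52377, were left out of all gene results. A gene was represented by its probe set with the highest mean over the arrays. The fit was made with limma 3.58.1 in R 4.3.3 on 3 group means with eBayes moderation and 1 residual degree of freedom, with Benjamini-Hochberg adjustment over all 19798 genes and a threshold of 0.05. It was tested on simulated data. Labels and file give no batch.

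The members and lists were chosen with earlier results of these data known. All measured members were named, and up to 4 genes of each other list with the largest change past the test in each comparison with mock. Promoter windows come from RefSeq, GRCh38.p14. Alternatives were 2 other scalings (quantile, median centring), dropping the dimmest 40% of genes, a trended and robust prior, averaging all probe sets of a gene, a 1.5-fold rule without a test, and dropping either mock array.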

Additional observations from a re-analysis of the deposited data

Results flagged for a closer look

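For 4 members the segmented and the intact array lay on opposite sides of both mock arrays. ESRP2 changed by 0.058 with the segmented and -0.88 with the intact duplex, CDX1 by -0.39 and 0.30, LGR5 by 0.15 and -0.16, and CLDN7 by 0.080 and -0.15. The limma test of the difference between the duplexes did not pass for any of them, with adjusted p-values of 0.184 for ESRP2, 0.20 for CDX1, 0.370 for LGR5 and 0.479 for CLDN7. CDX1 and LGR5 were dim, with log2 levels from 3.01 to 3.69 and from 2.09 to 2.40 on the 4 arrays. The mock arrays lay 0.11 apart for ESRP2, 0.06 for CDX1, 0.00 for LGR5 and 0.04 for CLDN7, beside a median of 0.12 over all genes. Whether these gaps account for the opposition was not tested. LGR5 read 2.2501 on each mock array, and ESRP2 read 10.8705 on the segmented array against 10.8684 on mock array 1. The second probe set of CLDN7 was lower with both duplexes (-0.02 and -0.36).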

How the results depend on the processing

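With the segmented duplex 8 members passed limma, in place of 3, once the 40% dimmest genes were dropped (16 members tested) and also 8 with the trended and robust prior, where 40.2% and 27.4% of all genes passed. Both fits added CDH1, CLDN3, CLDN4, ELF3 and KRT18, and the first also added MUC1. For segmented against intact the count was 3, 2 and 3, in place of 0, with those genes dropped, with that prior and by the 1.5-fold rule, where 15.6%, 12.2% and 9.98% of all genes passed. With the intact duplex the counts ran from 7 to 12 around 8 by limma, while 24.9% to 58.5% of all genes passed. Dropping the dimmest genes added CLDN3, CLDN4, KRT18 and MUC1 there, and the trended and robust prior added CLDN3, CLDN4, KRT18 and ST14. The falls of ESRP1 passed under all 5 other fits with each duplex; the rises of TSPAN8 passed under the 4 that tested it. Members whose change turned sign had not passed in that comparison in any of the fits named here. With the segmented duplex, centring on array medians gave EPCAM -0.18, CDH17 -0.12, CLDN7 -0.11, KRT19 -0.063, CDX2 -0.0052, ASCL2 -0.16, ESRP2 -0.14, LGALS3 -0.18, CEACAM6 -0.18, FABP1 -0.074 and LGR5 -0.046. A further quantile normalization gave EPCAM -0.017, ASCL2 -0.053, LGALS4 0.020 and VIL1 0.012, and the mean of all probe sets ESRP2 -0.079 and CEACAM6 -0.068. With the intact duplex, centring gave EPCAM -0.23, CDH17 -0.039, KRT19 -0.15, CEACAM5 -0.079 and FABP1 -0.19, quantile normalization EPCAM -0.023 and the mean of all probe sets EPCAM -0.0033. For segmented against intact, centring gave CLDN3 0.047, ESRP1 0.025 and ST14 0.0070, quantile normalization CLDN3 0.026, and the mean of all probe sets CLDN3 0.13 and ESRP1 0.024. The cause was not tested. Without a mock array no residual degree of freedom is left, so no count exists; without mock array 1 the called changes kept their sign, as they did without mock array 2. No paired analysis was possible because each duplex has 1 array with no number shared with the mock arrays. No detection call was used here, so what the dim signals can show is limited.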
